A study of Mus musculus with 12 samples.

Results

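Potassium channel genes were examined in the nucleus accumbens of adult mice after prenatal immune activation. The members were all genes whose only listed symbol begins with Kcn. Kcne2 and Kcnj13, which mark the choroid plexus, were left out, and a gene with more than 1 row was taken at the row with the highest mean. This gave 85 genes among 18820 different symbols. The array table held 35556 rows, of which 21218 carried 1 symbol and were tested.

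The tissue came from C57BL/6N mice aged 12 weeks whose mothers, described as C57BL/6, were injected intravenously on gestation day 17. One group of 6 offspring had mothers given poly(I:C) at 5 mg/kg, which is double-stranded RNA used as a stand-in for virus, and the other 6 had mothers given saline. All offspring had gone through behavioural testing before dissection of accumbens core and shell together, and each array held 1 offspring. The labels name neither litter nor sex, and p-values take the offspring as independent.

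Potassium channels let potassium leave or enter the cell and set the resting potential, the shape of the action potential and the rate of firing. Voltage-gated channels open on depolarisation, inward rectifiers hold the cell near its resting potential, two-pore channels carry leak current, and calcium-activated channels follow the calcium that enters during spikes. Medium spiny neurons, the main neurons of the accumbens, rest at a very negative potential held by inward rectifiers of the Kir2 type, and A-type currents of the Kv4 and Kv1 types delay their first spike. Glial cells use inward rectifiers to take up the potassium that neurons release.

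Array values are log2 expression values. They ran from 1.86 to 12.29 over the table, and array medians lay between 4.78 and 4.85. Arrays correlated with each other at 0.991 to 0.997. The 12 measured markers of medium spiny neurons averaged 8.94 ± 0.20 (SD, n = 6, as for every mean ± SD) in controls and 9.02 ± 0.14 in the exposed group. Markers of neighbouring tissue and of oligodendrocytes differed between arrays. The mean of 10 cortical neuron genes ran from 5.73 to 6.80 in controls and from 6.19 to 6.95 in poly(I:C) offspring. The mean of 9 choroid plexus genes was 5.88 in control 4 and 6.66 in control 6 but between 4.47 and 4.68 in poly(I:C) offspring. The means of 11 mature oligodendrocyte genes nearly touched without overlap, with 7.514 to 8.08 in controls and 7.38 to 7.511 in poly(I:C) offspring. Every member was also fitted with the cortical mean as a covariate, and with cortical, septal and choroid plexus means together. The septal mean, of 10 septal, pallidal and diencephalic neuron genes, was 6.15 ± 0.25 in controls and 6.06 ± 0.23 in the exposed group. Medium spiny neuron and oligodendrocyte means were not used as covariates. Counts and values from the covariate fits are given with the results.

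None of the 85 potassium channel genes passed the limma test after adjustment over all 21218 rows, where 0.0613% of rows passed. At an adjusted p under 0.1 the members called were again 0, and 0.707% of all rows. The smallest adjusted p among the members was 0.153. An unadjusted p under 0.05 was reached by 17 members, 20% of them, against 14.4% of all rows. These were 11 higher in poly(I:C) offspring (7.83% of all rows) and 6 lower (6.57% of all rows). In 0 members were the group ranges separate, compared with 1.13% of all rows. In value, 56 members were higher and 29 lower, against 50.9% higher over all rows. The median log2 difference, poly(I:C) minus control, was 0.03 over the members and 0.00 over all rows.

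The split in sign differed with the level of the gene. Of the 52 members at or above the median level of all rows, 44 were higher in value, against 59.5% of all such rows. Among these 10 were higher at an unadjusted p under 0.05 (12.4% of rows there) and 2 lower (7.37% of rows there). Of the 33 members under the median level 12 were higher in value, against 42.3% of such rows. Of those 1 was higher at an unadjusted p under 0.05 (3.21% of rows there) and 4 were lower (5.78% of rows there).

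These counts also moved when single arrays were left out or a tissue mean was added to the fit. Leaving out control 1 gave 19 higher (7.61% of all rows in that fit), leaving out control 3 gave 17 (9.62%) and leaving out control 2 gave 7 (6.79%). Dropping control 4 gave 2 lower (5.32% of all rows), as did dropping poly(I:C) 3 (5.7%). Dropping any one of control 1, control 6 and poly(I:C) arrays 1, 4 and 5 gave 3 lower, beside 5.41% to 7.23% of all rows. With the cortical marker mean as a covariate 1 member was higher and 4 lower, against 5.3% and 5.56% of all rows. Without control 4 and control 6 the counts were 4 and 1, against 4.34% and 4% of all rows.

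**Figure D1:**
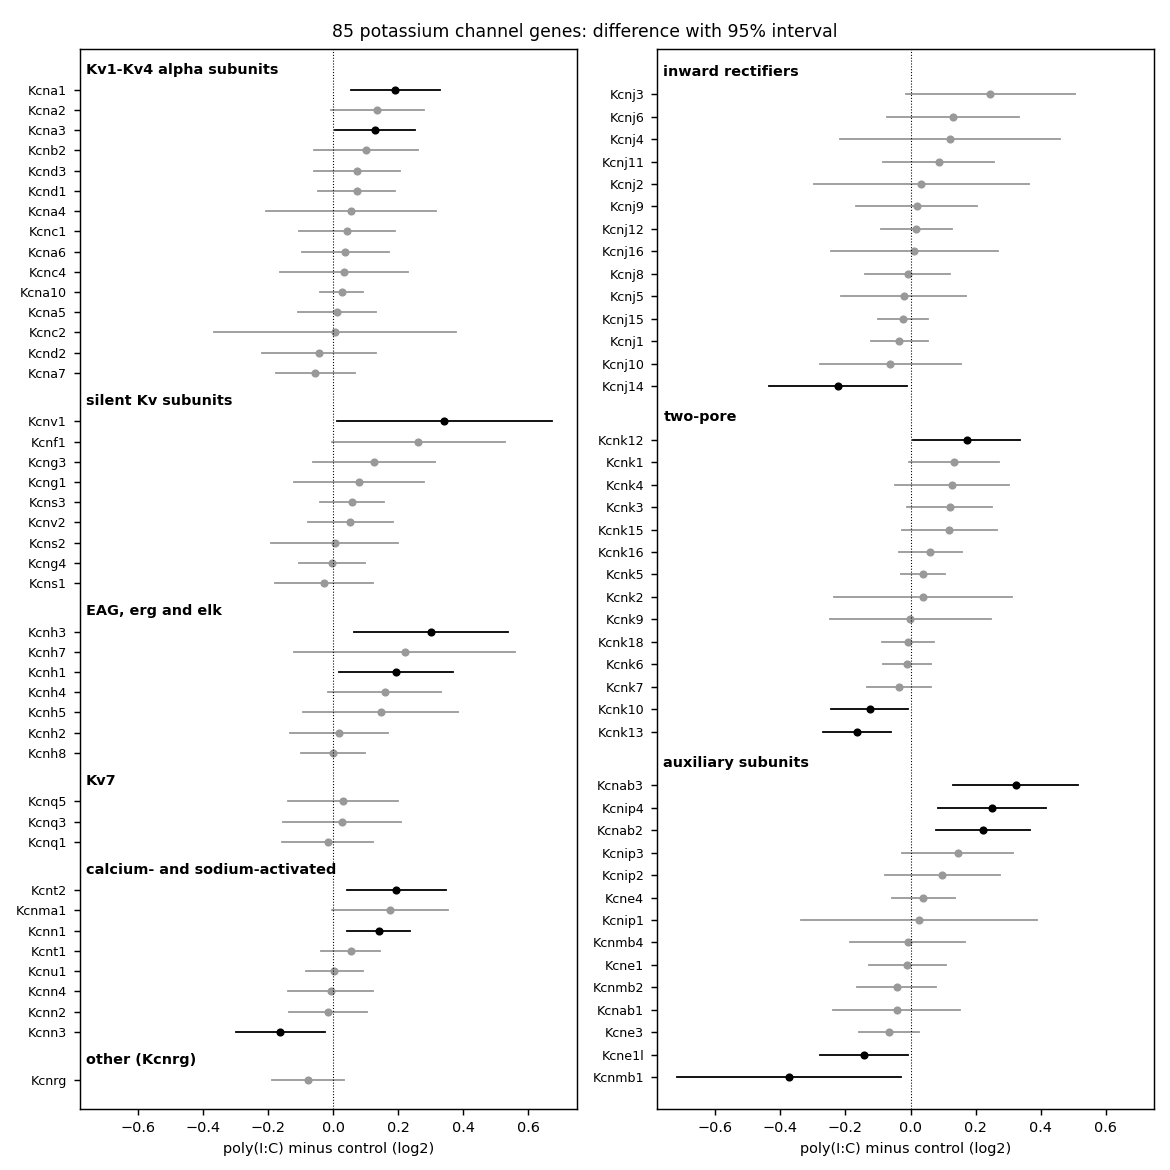
Log2 difference (poly(I:C) minus control, x axis) with its 95% interval for each of the 85 members, grouped by subfamily. Black marks the 17 members with an unadjusted limma p under 0.05 and grey the others; 0 members passed after adjustment, and the differences run from -0.37 for Kcnmb1 to 0.34 for Kcnv1.

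Among the pore-forming subunits of the classical voltage-gated channels (Kcna, Kcnb, Kcnc and Kcnd), 13 of 15 were higher in value and 2 lower. Of these 15, 13 lay at or above the median level of all rows. The sign counts by subfamily stand beside 50.9% higher over all rows and 59.5% at or above that level. Kcna1 encodes a Kv1 subunit of axons that limits repetitive firing. Its controls had a lowest value of 8.96, a median of 9.10 and a highest of 9.32, and its poly(I:C) values were 9.14, 9.28 and 9.44. Poly(I:C) 1 and 6 lay above all controls and the other 4 overlapped with them. The log2 difference was 0.19 (95% interval 0.05 to 0.33, unadjusted p = 0.00995, limma adjusted p = 0.209).

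Kcna2, the usual partner of Kcna1 in axonal channels, was 8.22 ± 0.16 in controls against 8.36 ± 0.08 after poly(I:C), a log2 difference of 0.14 (95% interval -0.01 to 0.28). Kcna3, a Kv1 subunit also known from lymphocytes, had a log2 difference of 0.13 (unadjusted p = 0.0430), with 4 poly(I:C) arrays above all controls. For both genes the groups overlapped.

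The A-type subunits showed little difference in mean. Kcnd2, the main Kv4 subunit of the dendrites of medium spiny neurons, was 9.29 ± 0.14 in controls against 9.25 ± 0.17 after poly(I:C) (log2 difference -0.04, 95% interval -0.22 to 0.13). Kcna4, which encodes an inactivating Kv1 subunit, had a difference of 0.05 (95% interval -0.21 to 0.32). Kcnd3 had a difference of 0.07 (95% interval -0.06 to 0.20) at its brighter row. A dimmer row of Kcnd3 gave 0.12 with an unadjusted p of 0.0323, so the rows fell on different sides of that limit.

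Kcnc1 and Kcnc2 encode Kv3 subunits that let interneurons fire fast. Their log2 differences were 0.04 (95% interval -0.11 to 0.19) and 0.00 (95% interval -0.37 to 0.38). The wide interval of Kcnc2 went with a spread of 5.86 to 6.98 among controls.

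The modifying subunits that do not form channels alone (Kcnf, Kcng, Kcns and Kcnv) were higher in value for 7 of 9 members (50.9% of all rows). Of the 9, 5 lay at or above the median level, where 59.5% of rows were higher. Kcnv1, which joins Kv2 subunits, had a control minimum of 7.07, median of 7.61 and maximum of 8.08, against 7.57, 7.98 and 8.16 in poly(I:C) offspring. The ranges overlapped over most of their length. The log2 difference of 0.34 was the largest positive one among the members (95% interval 0.01 to 0.67, unadjusted p = 0.0443, limma adjusted p = 0.335). With the cortical mean as covariate it was 0.02. Kcnf1, a further modifier of Kv2 channels, had a difference of 0.26 (95% interval -0.004 to 0.53), and one of -0.06 with that covariate.

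In the Kcnh family of EAG, erg and elk channels 6 of 7 members were higher in value, with a median log2 difference of 0.16. Of the 7, 6 lay at or above the median level, where 59.5% of all rows were higher. Kcnh3, an elk channel largely of the forebrain, ran from 7.26 to 7.97 in controls with a median of 7.76, and from 7.83 to 8.25 in poly(I:C) offspring with a median of 7.99. The difference was 0.30 (95% interval 0.06 to 0.54, unadjusted p = 0.0164, limma adjusted p = 0.246), and 4 of 6 poly(I:C) arrays lay above all controls. Kcnh1, an EAG channel, had a difference of 0.19 (unadjusted p = 0.0326) and Kcnh4, an elk channel, one of 0.16 (unadjusted p = 0.0713). In each case the groups overlapped.

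Of the Kv7 channels, which carry the M-current that damps repetitive firing and that muscarinic receptors suppress, 3 were measured. Kcnq3 was 8.31 ± 0.17 in controls against 8.34 ± 0.16 after poly(I:C), and Kcnq5 was 8.90 ± 0.15 and 8.93 ± 0.15. The 95% intervals of their differences ran from -0.15 to 0.21 and from -0.14 to 0.20. Kcnq1, best known from heart and inner ear, had a difference of -0.02.

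Inward rectifiers (Kcnj) were higher in value for 8 of 14 members and lower for 6, against 50.9% higher over all rows. An unadjusted p under 0.05 on the higher side was reached by 0 members (7.83% of all rows). Kcnj2 and Kcnj4 encode the Kir2 channels of medium spiny neurons. Kcnj2 had a control minimum of 5.78, median of 6.16 and maximum of 6.55, and poly(I:C) values of 5.90, 6.18 and 6.67. Kcnj4 had 6.86, 7.56 and 8.04 in controls against 7.31, 7.64 and 7.83. The groups overlapped almost fully for both genes. The log2 differences were 0.03 (95% interval -0.30 to 0.36) for Kcnj2 and 0.12 (95% interval -0.22 to 0.46) for Kcnj4.

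Kcnj3, Kcnj6 and Kcnj9 encode the GIRK channels that G-protein-coupled receptors open, among them opioid and dopamine D2 receptors. Kcnj3 was 7.42 ± 0.27 in controls against 7.66 ± 0.21 after poly(I:C), a difference of 0.25 (95% interval -0.01 to 0.51, unadjusted p = 0.0620). Kcnj6 had a difference of 0.13 and Kcnj9 one of 0.02. With the cortical mean as covariate Kcnj3 was at 0.01 and Kcnj6 at -0.04, and Kcnj9 was at -0.18 with an unadjusted p of 0.0158 (limma adjusted p = 0.365).

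Kcnj10, the glial channel that buffers extracellular potassium, was 8.49 ± 0.19 in controls against 8.43 ± 0.21 after poly(I:C) (log2 difference -0.06, 95% interval -0.28 to 0.15). The mean of 10 astrocyte markers was 7.96 ± 0.16 and 7.98 ± 0.12. Kcnj14 had the lowest difference of the inward rectifiers, -0.22 (unadjusted p = 0.0408), at a level of 4.05 in controls. That is under 5.47, the median level of all tested rows.

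Two-pore channels (Kcnk) were split, with 8 of 14 higher in value and 6 lower, against 50.9% higher over all rows. Kcnk13, a leak channel known from microglia, had a control minimum of 5.56, median of 5.65 and maximum of 5.86. Its poly(I:C) values were 5.44, 5.53 and 5.59, and 5 of 6 lay below all controls. The log2 difference was -0.16 (95% interval -0.27 to -0.06, unadjusted p = 0.00480, limma adjusted p = 0.167). The mean of 8 microglial markers was 6.62 ± 0.09 in controls against 6.59 ± 0.08 after poly(I:C). Its part in the Kcnk13 difference was not tested. The Kcnk13 difference was -0.09 with the cortical mean as covariate.

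Kcnk10, a stretch-sensitive leak channel, had a difference of -0.13 (unadjusted p = 0.0400), with 4 poly(I:C) arrays below all controls. Kcnk12, a relative of Kcnk13, had a difference of 0.17 (unadjusted p = 0.0407). Kcnk1 was at 0.13 (unadjusted p = 0.0570). Kcnk2, another stretch-sensitive leak channel, was at 0.04 with a 95% interval from -0.24 to 0.31.

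Among calcium- and sodium-activated channels, grouped by symbol (Kcnn, Kcnma, Kcnt and Kcnu), 5 of 8 were higher in value (50.9% of all rows). Kcnu1 was counted here by its symbol alone, at a difference of 0.003. The small-conductance channels, which are opened by calcium and slow firing after a spike, differed in sign. Kcnn3 had a control minimum of 7.85, median of 8.09 and maximum of 8.27, against 7.80, 7.92 and 8.05. Its difference was -0.16 (95% interval -0.30 to -0.03, unadjusted p = 0.0229, limma adjusted p = 0.271). Kcnn1 was at 4.59 ± 0.06 and 4.73 ± 0.09, a difference of 0.14 (unadjusted p = 0.00771) at a level under the median of all rows. Kcnn2 was at -0.02 (95% interval -0.14 to 0.10).

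Kcnt2, a channel opened by sodium, was 6.34 ± 0.11 in controls against 6.53 ± 0.16 after poly(I:C), a difference of 0.19 (unadjusted p = 0.0166). The large-conductance calcium-activated channel gene Kcnma1 had a difference of 0.18 (unadjusted p = 0.0538). With the cortical mean as covariate the differences were 0.04 for Kcnt2 and -0.003 for Kcnma1.

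The auxiliary subunits (Kcnab, Kcne, Kcnip and Kcnmb) were split, with 7 of 14 higher in value and 7 lower, against 50.9% higher over all rows. Their median log2 difference was 0.008. At an unadjusted limma p under 0.05, 3 were higher (7.83% of all rows) and 2 lower (6.57% of all rows). They held 3 of the 4 smallest unadjusted p-values among the members. Kcnab3, a cytoplasmic beta subunit of Kv1 channels, had a control minimum of 5.92, median of 6.36 and maximum of 6.49. Its poly(I:C) values were 6.35, 6.64 and 6.78, with 5 of 6 above all controls and poly(I:C) 6 inside their range. The log2 difference was 0.32, a 1.25-fold higher level (95% interval 0.13 to 0.52, unadjusted p = 0.00284, limma adjusted p = 0.153). With the cortical mean as covariate the difference was 0.18 (unadjusted p = 0.0747) and with the 3 tissue means 0.14 (unadjusted p = 0.0951). Only with array weights did the adjusted p fall below the threshold, at 0.0459. In that fit 140 of 21218 rows passed, against 13 without weights. Over the 23 alternatives the adjusted p of Kcnab3 ran from 0.0459 to 0.556.

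Kcnab2, the most widely expressed beta subunit in brain, had a control minimum of 8.74, median of 8.95 and maximum of 9.16, against 9.03, 9.20 and 9.27. Poly(I:C) 2, 3 and 4 lay above all controls. The difference was 0.22 (95% interval 0.08 to 0.37, unadjusted p = 0.00550, limma adjusted p = 0.176) and 0.07 with the cortical mean as covariate. Kcnab1, a beta subunit that gives Kv1 channels fast inactivation, had a difference of -0.04 (95% interval -0.24 to 0.15).

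Kcnip4 encodes a calcium-binding partner of Kv4 channels. Its controls were at 8.06, 8.34 and 8.51 (minimum, median, maximum) and its poly(I:C) arrays at 8.44, 8.52 and 8.78, of which 3 lay above all controls. The difference was 0.25, a 1.19-fold higher level (95% interval 0.08 to 0.42, unadjusted p = 0.00609, limma adjusted p = 0.180). It was 0.31 with the cortical mean as covariate and 0.25 with cortical, septal and choroid plexus means, and its unadjusted p stayed under 0.05 in 23 of 23 alternatives. Kcnip2, the Kv4 partner typical of striatal neurons, was at 0.10 (95% interval -0.08 to 0.27).

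Kcnmb1 and Kcne1l also had an unadjusted p under 0.05. The naming rule did not cover them, and they were picked once their values were known. Kcnmb1, the beta subunit of the large-conductance channel in smooth muscle, had the lowest difference of all members, -0.37 (95% interval -0.72 to -0.03, unadjusted p = 0.0360). It was 4.53, 4.42 and 4.94 in controls 2, 4 and 6, and between 3.83 and 3.95 in poly(I:C) offspring. The choroid plexus marker mean in those controls was 5.09, 5.88 and 6.66. Controls 1 and 3, with the lowest Kcnmb1 values among controls, 3.73 and 3.84, had choroid plexus means of 4.62 and 4.70. Control 5 had Kcnmb1 at 4.11 and a choroid plexus mean of 4.71, close to that of control 3. With the 3 tissue means (cortical, septal, choroid plexus) as covariates the Kcnmb1 difference was 0.0067. With the cortical mean alone as covariate the Kcnmb1 difference was -0.05. The separate part of the choroid plexus mean in this change was not tested. Kcne1l, an accessory subunit gene, had a difference of -0.14 at a level under the median of all rows. Kcnrg, whose product limits the assembly of Kv channels, was at -0.08.

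**Figure D2:**
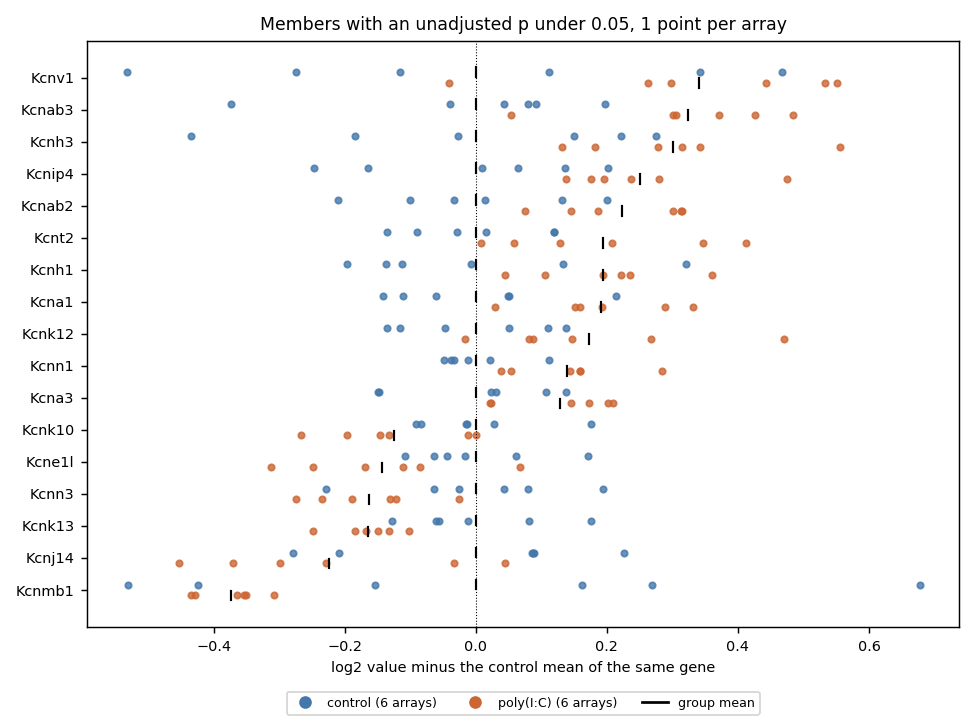
Values of the 17 members with an unadjusted p under 0.05, 1 point per array, as log2 value minus the control mean of the same gene (x axis). Blue points are the 6 controls, orange points the 6 poly(I:C) arrays and black ticks the group means; the groups overlap in every gene, and the spread of the controls is widest in Kcnmb1 and Kcnv1.

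Genes outside the Kcn symbols that assemble with, anchor or modify potassium channels were read as a fixed list of 20. In value 16 were higher and 4 lower, and 0 passed over all rows. An unadjusted p under 0.05 on the higher side was reached by 3 (7.83% of all rows). Of the 20, 16 lay at or above the median level of all rows. Of all rows there, 59.5% were higher in value and 12.4% were higher at that limit. The median difference over the 20 genes was 0.05. Lrrc55, a gamma subunit of the large-conductance channel, was at 6.40 ± 0.16 in controls against 6.80 ± 0.24 after poly(I:C), a difference of 0.40 (unadjusted p = 0.00158, limma adjusted p = 0.132). Dpp10, a Kv4 partner at the membrane, had a difference of 0.22 (unadjusted p = 0.00632). Cntnap1, an axonal protein of the region beside the node of Ranvier, had one of 0.18 (unadjusted p = 0.0110), and Adam22, a receptor for Lgi1 at Kv1 channels, one of 0.10 (unadjusted p = 0.0598).

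Members were next followed from array to array within each group, with the group means removed. The measure was the correlation of each gene with the cortical marker mean over 12 arrays, by a two-sided permutation test with 100000 resamples. Marker deviations were shuffled over all 12 arrays and not within groups, here and for the medium spiny neuron mean below. Deviations from group means are not fully exchangeable between arrays, so these p-values are approximate. P-values were adjusted over 170 relations, which include those to the choroid plexus mean. All arrays share one normalization by the authors.

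After adjustment 11 of 85 members were related to the cortical mean, all positively, and 8 of them also by rank. The weakest of them had r = 0.76. A correlation at least that high was reached by 12.9% of the members and by 2.16% of all rows outside the marker list. Among rows at or above the median level it was reached by 17.3% of members and 3.39% of rows. Kcnf1 had r = 0.96 and rho = 0.96 (permutation p = 1e-05 and 2e-05, the first being the smallest the resamples can give; adjusted p = 0.000850 and 0.00170). Without control 1 and poly(I:C) 4, the arrays farthest from the median, and with group means taken over the other 10, r was 0.92. Kcnf1 was lowest in control 6, at 6.55, and highest in poly(I:C) 4, at 7.43. The cortical mean was 5.73 and 6.95 in those arrays, its own extremes.

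Kcnh7, which encodes an erg channel, had r = 0.95 and rho = 0.90 (permutation p = 2e-05 and 0.00017, adjusted p = 0.00113 and 0.00578), and r = 0.92 without those arrays. Kcnab2 had r = 0.87 and rho = 0.94 (permutation p = 0.00033 and 2e-05, adjusted p = 0.0119 and 0.00170), and r = 0.93 without them. The other members were Kcnk15, Kcnj9, Kcnmb4, Kcnt2, Kcnma1, Kcnc1, Kcnv1 and Kcnh5, with r from 0.76 to 0.95. Without control 1 and poly(I:C) 4 all 11 had an r of 0.55 or more, and Kcnk15, Kcnab2, Kcnf1, Kcnh7 and Kcnt2 passed after adjustment over 85 relations. The relation of the other 6 passed only with those arrays. Kcnn1, at r = 0.93, passed only without them. The share of all rows was not computed without control 1 and poly(I:C) 4. Kcnh7, Kcnk15, Kcnmb4 and Kcnh5 were not covered by the naming rule and were picked once their values were known.

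These 11 genes had a median group difference of 0.18, from -0.01 to 0.34, with 10 higher and 1 lower. Of the 11, 9 lay at or above the median level, where 59.5% of all rows were higher. The cortical mean itself was 6.13 ± 0.38 in controls against 6.59 ± 0.29 after poly(I:C). For the choroid plexus mean no correlation over 12 arrays is given, because control 4 and control 6 stood apart. Over the other 10 arrays 20 of 85 members had an unadjusted permutation p under 0.05 by Pearson's r, with no share over all rows computed. After adjustment 4 members passed by r and 0 by rank. They were Kcnk13 (r = 0.89, rho = 0.79, permutation p = 0.00086 and 0.00878, adjusted p = 0.0244 and 0.123), Kcnj9 (r = -0.89), Kcna3 (r = -0.86) and Kcnh7 (r = -0.85). Kcnmb1 had r = 0.84 and rho = 0.72 (permutation p = 0.00369 and 0.0227, adjusted p = 0.0627 and 0.129). Kcnab2 and Kcnv1, both related to the cortical mean, had r = -0.73 here and did not pass (adjusted p = 0.140 and 0.153, permutation test). Among these 10 arrays the choroid plexus mean was 5.09 in control 2 and at most 4.71 in the others. Control 2 also had the highest Kcnk13 value of the 10, 5.86. It had the lowest values of Kcnj9, Kcna3 and Kcnh7, at 6.00, 6.26 and 6.58. The r values thus lean on control 2, and relations without it were not computed.

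**Figure D3:**
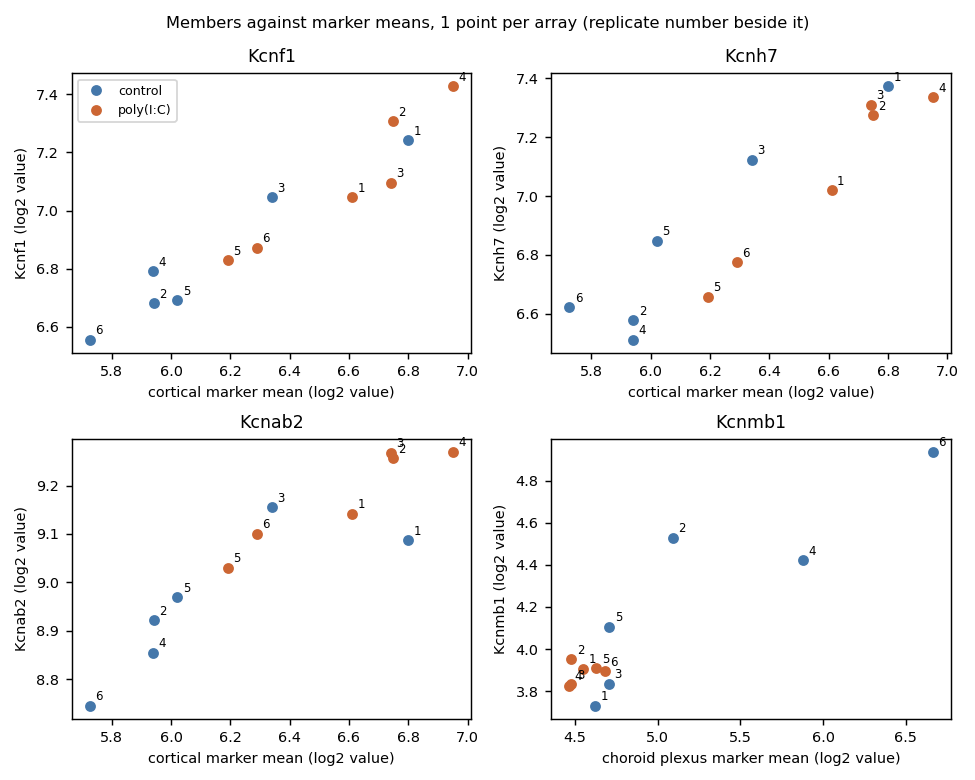
Log2 values of Kcnf1, Kcnh7 and Kcnab2 against the cortical marker mean, and of Kcnmb1 against the choroid plexus marker mean, 1 point per array with its replicate number. Blue is control and orange poly(I:C); Kcnf1 follows the cortical mean from 6.55 in control 6 to 7.43 in poly(I:C) 4, and Kcnmb1 is highest in control 6, at 4.94.

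A different set of members followed the markers of medium spiny neurons. This relation was added after the data had been seen, and its 85 p-values were adjusted on their own. It passed for 14 members, 13 positive and 1 negative, and for 10 of these also by rank. The weakest had r = 0.78 in size. A positive correlation at least that high was reached by 15.3% of the members and by 1.6% of all rows outside the marker list. Among rows at or above the median level the shares were 25% and 2.77%. Kcnj2 had r = 0.93 and rho = 0.93 (permutation p = 1e-05 and 3e-05, adjusted p = 0.000708 and 0.00128), and r = 0.93 without control 6 and poly(I:C) 6. Kcnd2 had r = 0.92 and rho = 0.91 (permutation p = 2e-05 and 0.00012, adjusted p = 0.000708 and 0.00204), and r = 0.84 without them.

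The medium spiny neuron mean was lowest in control 6, at 8.61, and highest in poly(I:C) 6, at 9.27. In those arrays Kcnj2 was 5.78 and 6.67, Kcnd2 was 9.06 and 9.56, and Kcna4 was 7.29 and 8.19. The other members with a positive relation were Kcnab1, Kcnk2, Kcnh4, Kcns2, Kcng3, Kcnq5, Kcnq3, Kcnd1, Kcnh3 and Kcnip2, with r from 0.78 to 0.93. Kcnk10 had a negative one, at r = -0.81. Kcnd1 and Kcns2 were not covered by the naming rule and were picked once their values were known. Without control 6 and poly(I:C) 6, with group means taken over the other 10 arrays, 10 of the 14 had an r over 0.5 in size. After adjustment over 85 relations Kcnj2, Kcns2, Kcnd2, Kcnip2, Kcnk2 and Kcnab1 passed, so the other 8 passed only with those arrays. The share of all rows was not computed without control 6 and poly(I:C) 6.

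These 14 genes had a median group difference of 0.04. The medium spiny neuron mean overlapped between the groups, from 8.61 to 9.18 in controls and from 8.88 to 9.27 in poly(I:C) offspring. None of the 85 members passed for both the cortical and the medium spiny neuron mean. In bulk tissue fewer cells of a type and less RNA per cell cannot be told apart.

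**Figure D4:**
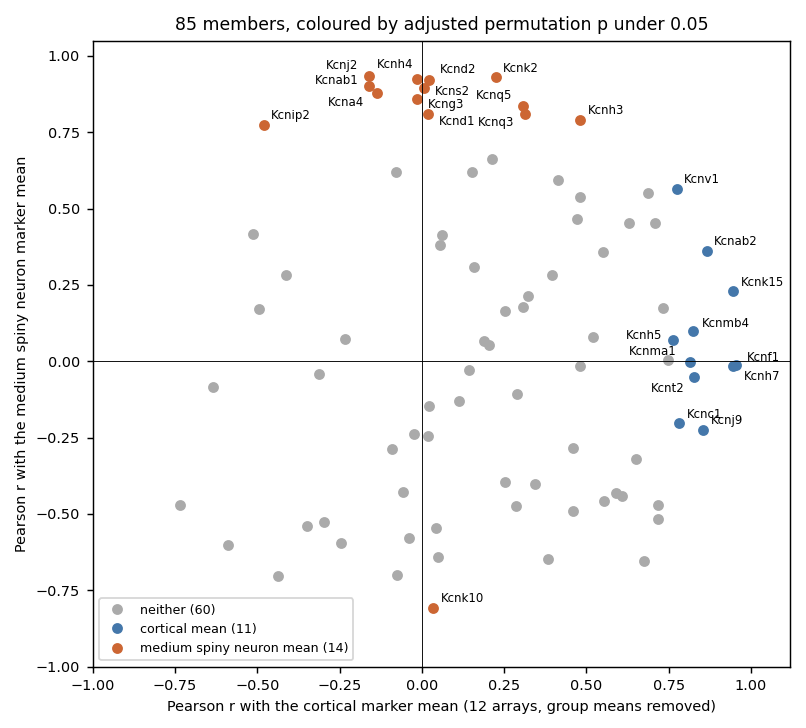
Pearson correlation of each of the 85 members with the cortical marker mean (x axis) and with the medium spiny neuron marker mean (y axis), over 12 arrays with group means removed. Blue marks the 11 members related to the cortical mean, orange the 14 related to the medium spiny neuron mean and grey the other 60; 0 members passed for both.

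With the 3 tissue means (cortical, septal, choroid plexus) as covariates together, 0 members passed the adjusted threshold, 4 were higher at an unadjusted p under 0.05 (4.69% of all rows) and 6 were lower (5.8% of all rows). Of the 17 members past that limit without covariates, 3 remained past it in the same direction. These were Kcnip4 at 0.25 (unadjusted p = 0.00603), Kcnh3 at 0.14 (unadjusted p = 0.0164) and Kcnk10 at -0.13 (unadjusted p = 0.0475). Other members were past it in this fit but not without covariates. Kcnh4 at 0.16 (unadjusted p = 0.0194) and Kcnip2 at 0.18 (unadjusted p = 0.0475) were higher. Kcnmb4 at -0.18 (unadjusted p = 0.0161), Kcnc1, Kcnc4, Kcnj9 and Kcnh7 were lower. With the cortical mean alone 2 of the 17 remained, Kcnip4 and Kcnj14. Under either fit 13 of the 17 had a difference over 1.5 times smaller than without covariates. The 17 were picked for a small p without covariates, and the matching share over all rows was not computed. Of all rows, 14.4% had an unadjusted p under 0.05 without covariates. The shares were 10.5% with the 3 tissue means and 10.9% with the cortical mean. In the fit with the cortical mean Kcna1 was at 0.12, Kcna3 at 0.02, Kcnh1 at 0.06, Kcnh3 at 0.16 and Kcnk12 at 0.04. Kcnn1 was at 0.06, Kcnn3 at -0.08 and Kcne1l at -0.11. Over all members the sign turned for 25 with the cortical mean, 19 of them from higher to lower. It turned for 27 with the 3 tissue means, 20 of them from higher to lower. The share of all rows that turned sign was not computed.

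**Figure D5:**
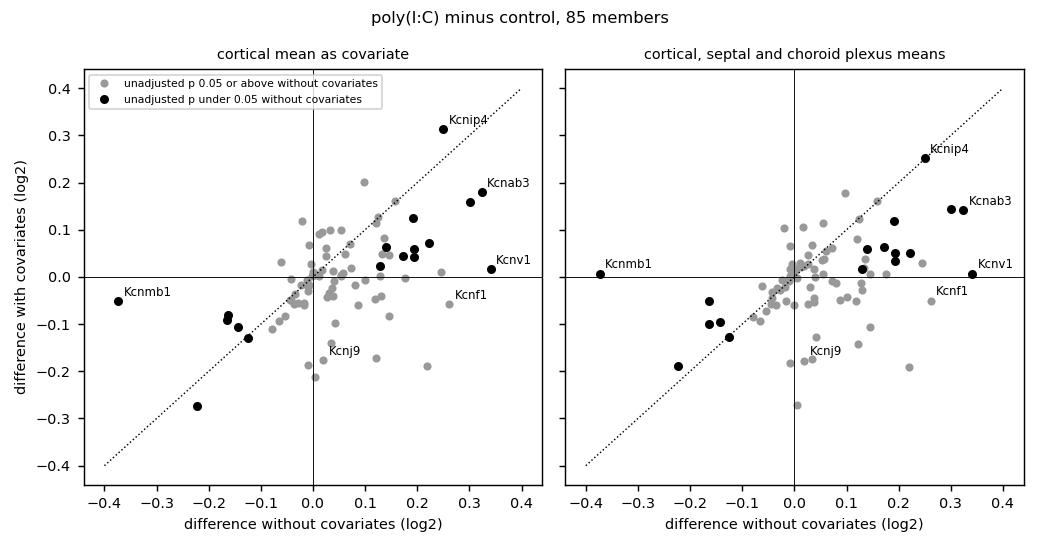
Log2 difference of each of the 85 members without covariates (x axis) against the difference with the cortical mean (left) or with cortical, septal and choroid plexus means (right) as covariates. Black points had an unadjusted p under 0.05 without covariates and the dotted line marks equal values; Kcnip4 lies on or above the line, while Kcnv1 and Kcnmb1 lie near 0 on the y axis of the right panel.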

How the data were processed

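The authors deposited 1 table of log2 expression values from Affymetrix Mouse Gene arrays, 1 per offspring, made from 250 ng of RNA. Per the submitters' processing notes, RMA and Partek 6.6 were used, with settings and build not stated there. Gene symbols come from GEO's platform annotation, and 85 of 85 members matched a RefSeq gene. The 2 rows that list a Kcn symbol with others, both giving Kcnmb4os1 and Kcnmb4, were left out. Kcnmb4 was taken at its row with 1 symbol, at a level of 4.60, under the median of all tested rows.

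Each row with 1 symbol was fitted in limma 3.58.1 (R 4.3.3) with group as the only term, two-sided, with Benjamini-Hochberg adjustment over 21218 rows and a threshold of 0.05. Intervals are 95% intervals of that fit. The number of arrays limits the precision. The code was tested on simulated data.

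Named genes are members past the adjusted threshold, members with separate groups, the 3 with the smallest unadjusted p in each subfamily, and a fixed list. The members and lists were chosen with earlier results of these data known. Replicate numbers 1 to 6 recur in both groups, but correlations of same-numbered arrays ran from -0.20 to 0.27, so they were not treated as pairs.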

Additional observations from a re-analysis of the deposited data

Results flagged for a closer look

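In 7 of the groups examined the most extreme array lay far from the other 5, by Dixon's criterion for 6 values. Chance alone gives such a gap in about 1 group in 20, and 120 groups were examined. Poly(I:C) 6 was high for Kcna4, at 8.19 with the next array at 7.69, and for Kcnd1, at 5.68 with the next at 5.50. It was low for Kcnc1, at 7.19 with the next array at 7.41. Poly(I:C) 5 was low for Kcnma1, at 8.08, and high for the mean of the ependymal markers, at 4.60. Control 4 was low for Kcnc2, at 5.86, and control 3 high for Kcnd3, at 7.58.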

How the results depend on the processing

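The counts of members were recomputed under 11 alternatives and with each of the 12 arrays left out. The number past the adjusted threshold was 0 throughout, except 1 with array weights (Kcnab3, difference 0.35). In that fit 140 of 21218 rows passed, against 13 without weights. The number higher at an unadjusted p under 0.05 was 18 with array weights (9.49% of all rows in that fit), 4 with the 3 tissue means (cortical, septal, choroid plexus) as covariates, 1 with the cortical mean alone and 4 without control 4 and control 6 (4.34%). The number lower was 3 with array weights (7.38%), 2 with dim rows left out (6.63%, 52 members remained) and 1 without control 4 and control 6 (4%). With 1 array left out, the numbers ran from 7 to 19 higher and from 2 to 5 lower. Of the 27 differences that turned sign with the 3 tissue means and the 25 with the cortical mean, those with an unadjusted p under 0.05 before or after were Kcnc1 at -0.13, Kcnc4 (outside the naming rule) at -0.17, Kcnj9 at -0.18, Kcnh7 at -0.19 and Kcnmb1 at 0.0067 with the 3 tissue means, and Kcnj9 at -0.18 and Kcnh7 at -0.19 with the cortical mean alone; the cause was not tested. With the replicate number as a block, 0 members passed, 13 were higher (7.17%) and 4 lower (6.03%). The median difference over members ran from 0.00 to 0.08. Signal over background is not in the table, and 33 members lay under the median level of all rows.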
